A study of Homo sapiens with 13 samples.

Results

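The early growth response genes EGR1, EGR2, EGR3 and EGR4 and their corepressors NAB1 and NAB2 were followed in MCF10A cells stimulated with EGF or with serum. These 6 genes were chosen by name, with earlier results of these data known. They were read by 11 probe sets, of 11964 genes on 22277 probe sets in the whole series. Where a gene had several probe sets, the brightest by its mean over the 13 arrays stood for the gene. All 6 passed the filter on dim genes that left 7734 genes for testing.

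The EGR proteins are zinc finger transcription factors that bind short GC-rich sites. EGR1, EGR2 and EGR3 are textbook immediate early genes, whose transcription is switched on through ERK, ternary complex factors and SRF without new protein synthesis. NAB1 and NAB2 bind EGR1, EGR2 and EGR3, recruit repressor complexes to their target genes, and NAB2 is itself known as a gene switched on by EGR factors, which forms a feedback loop.

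MCF10A is a spontaneously immortalized, non-tumorigenic human mammary epithelial line. Cultures were kept for 24 h without serum and then stimulated with EGF for 20, 40, 60, 120, 240 or 480 min, or for the same times with serum, and 1 culture was left unstimulated. Before that they had grown with both. Serum is here the submitters' name for insulin, heat-inactivated horse serum, cholera toxin and hydrocortisone together, so the serum cultures received several agents at once. Total RNA was hybridised to Affymetrix arrays, 6 for EGF, 6 for serum and 1 for the unstimulated cells. No stimulus and time was measured more than once, and no unstimulated array was taken at a later time. For single times and the steps between them, the EGF and serum arrays of a time were therefore used as 2 samples of that time. The mean difference between EGF and serum was a term of its own in those fits. Their p-values therefore measure how the difference between the 2 arrays of a time varied over the times, and leave out a constant difference. Where late arrays were set against early ones, arrays of different times served as samples, so that spread includes changes over time. In EGF against serum the spread is again that of the differences between arrays of the same time. The EGF array of 20 min carries 20 min in its title and 40 min in its description, and the title was used.

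The sequence before 4 of the transcript starts is shown because the members differ there in their motif matches. Each is the run of 250 bases that ends at the transcript start in RefSeq on GRCh38.p14, printed 5′ to 3′ on the strand of the gene. They lie at chr5:138465229-138465478 on the plus strand for EGR1, chr10:62816367-62816616 on the minus strand for EGR2, chr2:73293549-73293798 on the minus strand for EGR4 and chr12:57088864-57089113 on the plus strand for NAB2. Capitals mark matches to the CArG box bound by SRF, to the CRE core TGACG bound by CREB family factors, and to the EGR site GCGNGGGCG, each searched on both strands.
EGR1: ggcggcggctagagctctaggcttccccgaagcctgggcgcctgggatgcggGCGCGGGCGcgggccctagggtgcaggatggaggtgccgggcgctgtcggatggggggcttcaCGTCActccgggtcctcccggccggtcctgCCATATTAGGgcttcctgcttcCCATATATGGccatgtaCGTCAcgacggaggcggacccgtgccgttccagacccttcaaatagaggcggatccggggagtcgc
EGR2: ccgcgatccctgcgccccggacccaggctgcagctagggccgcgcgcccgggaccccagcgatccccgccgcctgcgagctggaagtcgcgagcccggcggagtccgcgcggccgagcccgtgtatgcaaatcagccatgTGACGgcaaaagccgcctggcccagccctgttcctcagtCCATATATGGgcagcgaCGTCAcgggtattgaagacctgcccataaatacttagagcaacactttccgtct
EGR4: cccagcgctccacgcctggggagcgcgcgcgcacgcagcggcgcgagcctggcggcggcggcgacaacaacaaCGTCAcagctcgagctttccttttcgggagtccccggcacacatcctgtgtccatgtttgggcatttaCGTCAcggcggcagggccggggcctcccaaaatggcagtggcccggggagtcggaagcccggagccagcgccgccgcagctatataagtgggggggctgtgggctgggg
NAB2: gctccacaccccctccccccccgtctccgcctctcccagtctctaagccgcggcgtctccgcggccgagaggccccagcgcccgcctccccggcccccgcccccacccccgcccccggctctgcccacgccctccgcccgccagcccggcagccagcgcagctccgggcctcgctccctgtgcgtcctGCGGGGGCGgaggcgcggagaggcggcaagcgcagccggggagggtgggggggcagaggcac

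Before the EGR1 start lay 2 CArG boxes, at 105 to 96 and at 83 to 74 bases upstream, with 2 CRE cores and 1 EGR site. The EGR2 window held 1 CArG box, at 71 to 62 bases upstream, between 2 CRE cores. EGR2 has 3 starts in the table. The one shown was picked for its CArG box, and the windows of the other 2 held none of these motifs. The EGR4 window held 2 CRE cores and no CArG box, and the NAB2 window held 1 EGR site, at 62 to 54 bases upstream. NAB1, with 3 starts, had EGR sites before 2 of them, some overlapping, and no CArG box. The windows of these 2 starts overlap, and some of their EGR sites are the same bases. Among all 35116 windows of this length, 1.16% held a CArG box, 21.2% a CRE core, 8.41% an EGR site, and 0.194% a CArG box and a CRE core together. By gene, counting any of its windows, 1.44% had a CArG box and 0.245% had both motifs together. A match is a description of these letters, and a window without one says nothing of the factor. The table gave windows for 5 of the 6 genes and none for EGR3, which was therefore not searched.

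**Figure D1:**
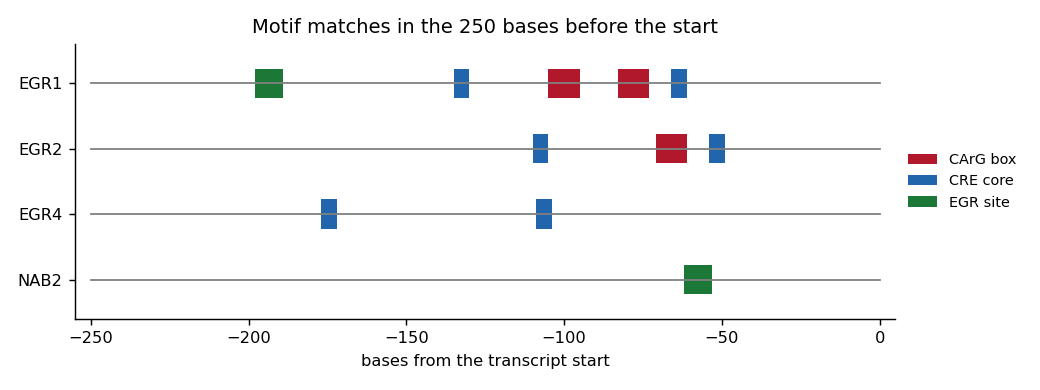
Positions of the motif matches in the 250 bases before the shown starts, in bases from the transcript start, 1 line per gene. The 2 CArG boxes of EGR1 and the 1 of EGR2 lie within 105 bases of the start, and the EGR site of NAB2 lies at 62 to 54 bases.

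The trimmed mean signals of the arrays were 150.04 to 150.05, a common value as after scaling to the same target, which says nothing of their brightness, and 33.3% to 40.0% of probe sets had a signal under 20. Markers of basal mammary epithelium were bright on every array: KRT5 had signals of 3823.2 to 6184.8 and KRT14 of 4862.9 to 6975, and 6 of the 10 listed markers were measured. The summed signal of 3 endothelial markers was 12.6 to 66.1, that of 3 leukocyte markers, most of it CD14, was 117 to 293.5, and that of 4 fibroblast markers, most of it DCN, was 177.7 to 470. PTPRC, which defines leukocytes, was at 0.3 to 12.8, while CD14 was at 86.1 to 286.2. Of the fibroblast markers, COL3A1 was at 0.4 to 15.8 and LUM at 0.2 to 4.9, while COL1A1 was at 22.4 to 77.7 and DCN at 139.6 to 405.4. Of 4 epithelial markers, CDH1 was at 1263.2 to 2647.7, EPCAM at 324.6 to 586.8 and KRT18 at 2615.7 to 3768. The other, KRT19, was at 0.6 to 5.2. In RNA of whole cultures, fewer cells with a transcript and less of it per cell cannot be told apart.

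EGR1, the best known member and an activator of growth factor and matrix genes, was already present in the unstimulated cells, with a MAS5 signal of 150.7. After EGF its signal was 473.5, 984.6, 908.8, 344.9, 151.1 and 132.9 at 20, 40, 60, 120, 240 and 480 min. After serum it was 353.5, 644.8, 685.7, 234.8, 77.5 and 113.9 at the same times. It was thus highest at 40 min in EGF and at 60 min in serum, and by 240 min it was within 1 signal unit of the unstimulated level in EGF and below it in serum. On the normalised scale, log2 of signal plus 6, the highest arrays stood 6.58-fold over the unstimulated array in EGF and 4.62-fold in serum. The mean of both stimuli rose by a log2 difference of 2.41 at 40 min (SE 0.21, limma adjusted p = 0.00875) and of 2.41 at 60 min (adjusted p = 0.00873). At 20 min the difference was 1.49 with an adjusted p of 0.246, and at 240 min it was -0.36 with an adjusted p of 0.631. Without either array of 40 min the call at 40 min was lost, and likewise for either array of 60 min at 60 min (adjusted p of 0.0583 to 0.127). The dimmer probe set of the gene also rose early and fell late, but with the 2 peak times exchanged between the stimuli. Its signal was 50.4 in unstimulated cells and was highest at 553.3 in EGF at 60 min and 266.9 in serum at 40 min. It ended at 43.1 in EGF and 14.3 in serum at 480 min. With that probe set the call at 40 min was lost, with an adjusted p of 0.053.

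EGR2, known for its part in myelination and hindbrain patterning, was at 1.6 in the unstimulated cells. Following EGF it reached 27, 37.1, 56.6, 21.7, 3.5 and 11.1 at 20, 40, 60, 120, 240 and 480 min. Following serum it reached 39.1, 34, 67.4, 16.2, 12.2 and 15.4. The 60 min array was the highest under both stimuli, and all 6 early arrays lay above all 6 late ones, which was not counted over all genes. The gene was dim, with a signal under 20 on 6 of the 13 arrays, and its mean of 4.74 on the log2 scale was just over the floor of 4.68 for dim genes. It passed that floor only through its higher arrays, since its unstimulated level was 2.93, so the calls on EGR2 are given as a description and support nothing. The log2 difference at 60 min was 3.16 (SE 0.32), with a limma adjusted p of 0.0167 over the filtered genes and of 0.0674 with no filter. It was 1.75 with an offset of 24 in place of 6, a size that depends on the offset because the signal is low. EGR2 was tested in 10 of 12 omissions of 1 array: without either 60 min array its mean fell under the floor, and without either 480 min array the call was lost (adjusted p of 0.0537 to 0.0549). At 40 min the difference was 2.47 with an adjusted p of 0.0723. For 480 min it was 1.42 with an adjusted p of 0.229.

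EGR3 is a close relative of EGR2 and is known for its part in T cell and muscle spindle biology. With the offset of 6 it had the largest log2 differences of the 6 genes at 20, 40, 60 and 120 min. This order depends on the offset, since the dimmer EGR2 rose from a signal of 1.6 to 56.6 in EGF and 67.4 in serum at 60 min. The unstimulated signal of EGR3 was 11.5. In EGF the signals were 113.3, 184.3, 182.4, 155.1, 17.5 and 16.9 at 20, 40, 60, 120, 240 and 480 min. In serum they were 153, 221.9, 253.6, 98.8, 17 and 16.9. Every array of 20 to 120 min was therefore at least 98.8, and every array of 240 and 480 min was at most 17.5. EGR3 rose by a log2 difference of 2.99 at 20 min (SE 0.30, 7.92-fold, limma adjusted p = 0.0401), of 3.62 at 40 min (12.3-fold, adjusted p = 0.00875), of 3.68 at 60 min (12.8-fold, adjusted p = 0.0083) and of 2.93 at 120 min (7.62-fold, adjusted p = 0.0461). By 240 min the difference was 0.52 with an adjusted p of 0.631. The step between 120 and 240 min was a drop, the mean at 240 min being 5.32-fold below that at 120 min (log2 difference -2.41, SE 0.25, adjusted p = 0.0435). The calls at 20 and 120 min and of this step rested on the full set of arrays: leaving out 1 array at a time lost them in 10 of 12, 11 of 12 and 12 of 12 omissions. The call at 120 min and that of the step were also lost without both 20 min arrays (adjusted p of 0.0972 and 0.0942), and the step without the filter on dim genes (0.145). The call at 40 min was lost without either array of 40 min (adjusted p of 0.0659 to 0.0896), and the one at 60 min without the serum array of 60 min (adjusted p = 0.0532). The unstimulated level of EGR3, 4.10, was also under the floor for dim genes, as were its levels at 240 and 480 min, 4.56 to 4.65. EGR3 thus passed the filter only through its arrays of 20 to 120 min. With no filter its calls at 40 min (adjusted p = 0.0473) and 60 min (0.0474) were kept. Those at 20 and 120 min and of the step were lost with no filter and are given as a description only.

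The share of the peak that remained at 120 min differed most between stimuli for EGR3, which was still at 84.2% of its highest EGF signal, against 39.0% of its highest serum signal. EGR1 at that time was at 35.03% of its highest signal in EGF and 34.2% in serum. By its dimmer probe set EGR1 was at 18.1% in EGF and 30.3% in serum. EGR2 was at 38.3% in EGF and 24.0% in serum. At 240 min EGR3 was down to 9.49% in EGF and 6.70% in serum, each of 1 array and without a test.

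**Figure D2:**
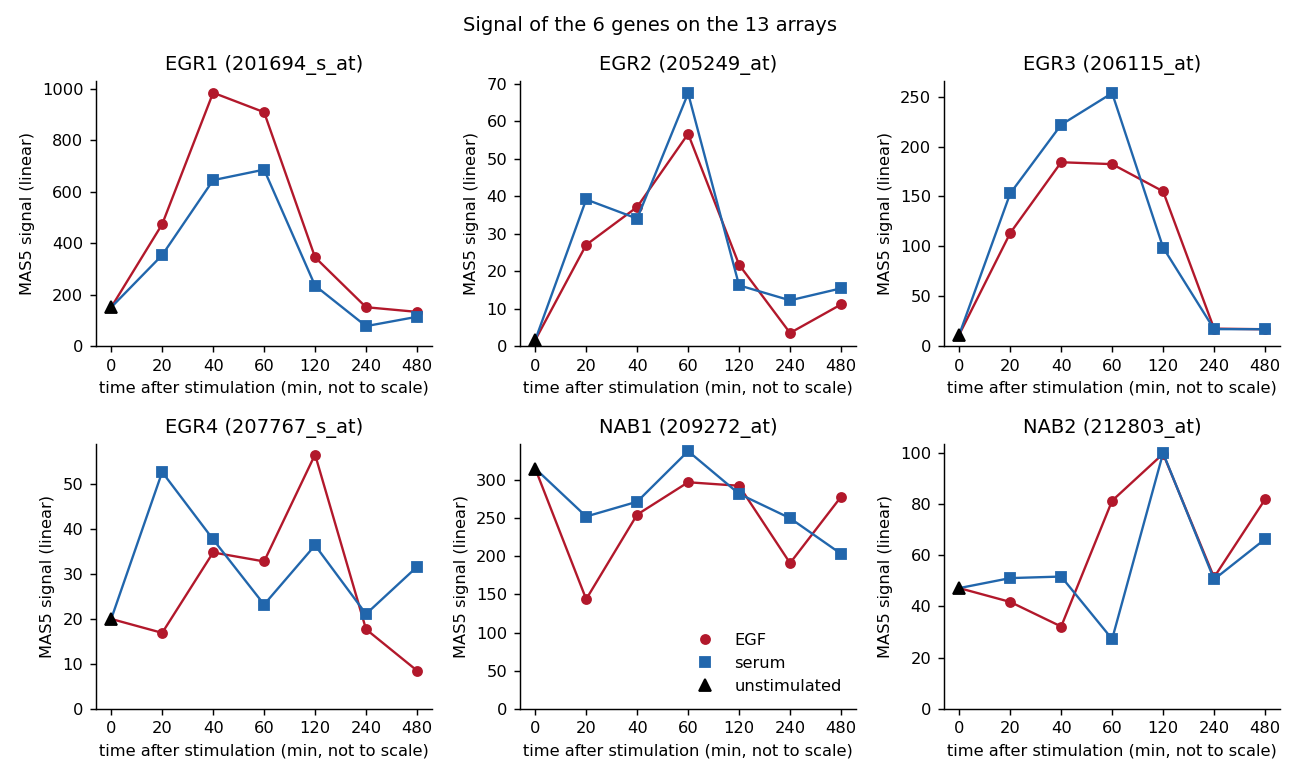
MAS5 signal on a linear axis against time after stimulation for the 6 genes, each by its brightest probe set, with 1 point per array for EGF, serum and the unstimulated cells. EGR1, EGR2 and EGR3 are highest at 40 or 60 min under both stimuli, and NAB2 is highest at 120 min.

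EGR4, a member described mainly in neurons and germ cells, had signals of 20 in unstimulated cells and of 16.9, 34.8, 32.8, 56.6, 17.7 and 8.5 after EGF at the 6 times. After serum they were 52.7, 37.7, 23.2, 36.4, 21.1 and 31.6. The EGF course was highest at 120 min and the serum course at 20 min, so the stimuli did not share a peak. Its largest mean difference was 1.07 at 120 min (SE 0.56, limma adjusted p = 0.608), and it was past the threshold at none of the 6 times. A dimmer probe set was at 2.4 in unstimulated cells and reached 34.8 at 120 min in EGF. In serum it was at 30.3 at 40 min and at 31 at 120 min, and on the normalised scale the 40 min array was the highest. On the normalised scale it exceeded the unstimulated array on 12 of 12 stimulated arrays, against 10 of 12 for the brighter one, and its mean lay under the floor for dim genes.

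NAB1, the more evenly expressed corepressor, was at 315 in unstimulated cells. Its signals after EGF were 143.7, 254.6, 297, 292.4, 191 and 277.9 at 20, 40, 60, 120, 240 and 480 min, and after serum 252.1, 271.5, 337.8, 281.8, 249.9 and 203.2. All but the serum array of 60 min lay below the unstimulated one. No time passed the test. The difference furthest from 0 was -0.68 at 20 min (SE 0.30, limma adjusted p = 0.863). A second probe set ran the other way, with signals of 119.1 to 175.7 on stimulated arrays and 131.5 in unstimulated cells, and a normalised level above the unstimulated one on 11 of 12 stimulated arrays, so the probe sets do not give NAB1 a common direction. The signal of the third ranged over 16.8 to 53 after EGF and 27 to 43.5 after serum, around 36 in unstimulated cells.

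NAB2, the inducible corepressor, had its highest signal at 120 min under both stimuli, later than EGR1, EGR2 and EGR3. It was at 47.1 in unstimulated cells. With EGF it was at 41.7, 32.1, 81.2, 99.5, 51.3 and 81.7 at 20, 40, 60, 120, 240 and 480 min. With serum it was at 51, 51.6, 27.2, 99.8, 50.5 and 66.2. The 120 min arrays stood 2.20-fold over the unstimulated array in EGF and 2.22-fold in serum, and the mean difference of 1.14 (SE 0.48) did not pass the test, with a limma adjusted p of 0.538. The other probe set was also highest at 120 min, at 40.1 in EGF and 54.7 in serum against 2 in unstimulated cells. Its difference at 120 min was 2.73 with an adjusted p of 0.205, but the mean of that probe set was under the floor for dim genes. At 60 min the stimuli parted, with 81.2 in EGF and 27.2 in serum.

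**Figure D3:**
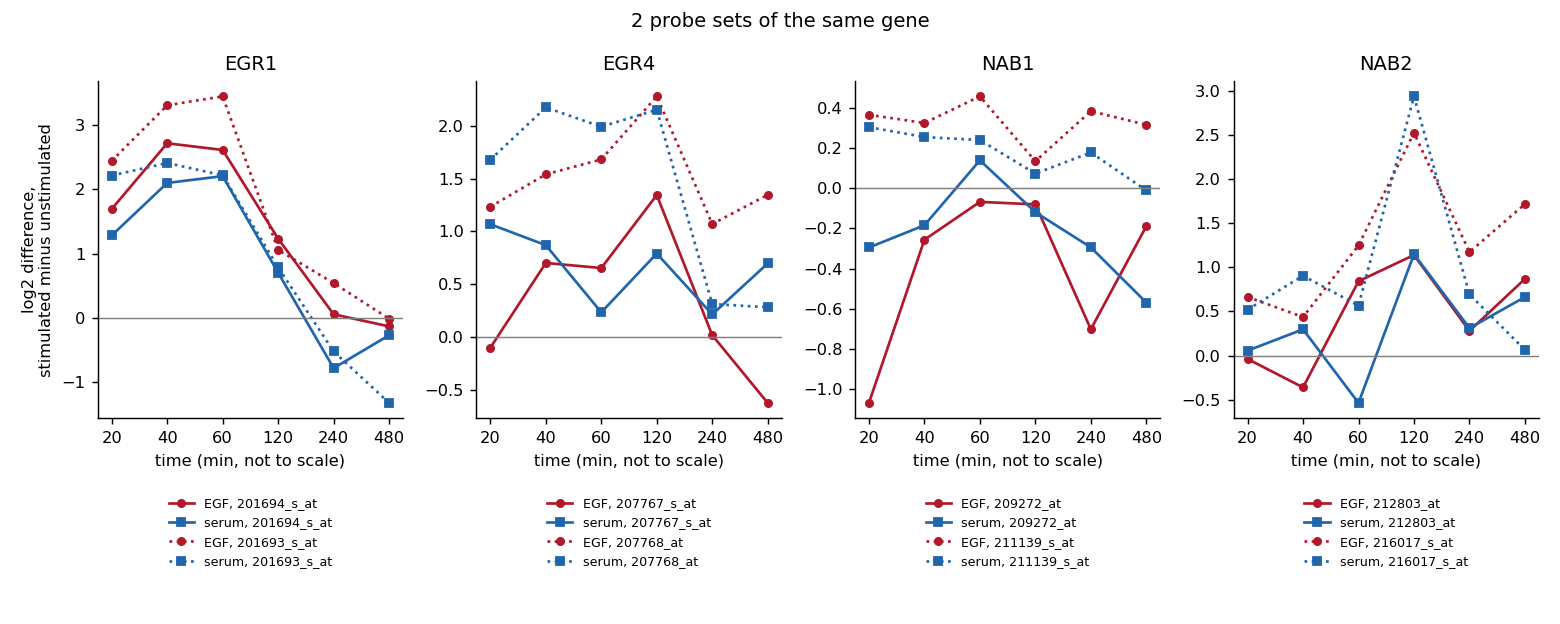
Log2 difference of each stimulated array from the unstimulated array against time, for 2 probe sets each of EGR1, EGR4, NAB1 and NAB2. Both NAB2 probe sets peak at 120 min under both stimuli, and the 2 NAB1 probe sets shown lie on opposite sides of 0 on most arrays.

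Over all genes these responses were rare. The members were chosen with earlier results of these data known, so their counts beside the shares of all genes are a description only. At 20 min 0.0259% of the 7734 genes tested passed the threshold, and 1 member did, EGR3. At 40 min 0.0776% passed, among them EGR1 and EGR3. At 60 min 0.103% passed, 8 genes, among them EGR1, and EGR2 and EGR3 with the limits given above. At 120 min 0.0259% passed, with EGR3 as 1 of 2 genes. At 240 and at 480 min 0% of all genes and no member passed by limma, while 1 member, EGR2, had an unadjusted p under 0.05 at each of these times, as had 9.75% of all genes at 240 min and 11.7% at 480 min. All 6 times share the single unstimulated array, so these comparisons are not independent of each other. The spread of unstimulated cultures was not measured: each p takes its spread from the stimulated arrays, and no omission of the unstimulated array was possible. With no filter on dim genes, the calls of EGR1 at 60 min (adjusted p = 0.0504), of EGR2 at 60 min (0.0674) and of EGR3 at 20 min (0.131) and 120 min (0.148) were lost, and EGR3 at 20 min also missed with an offset of 24 (0.0559).

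**Figure D4:**
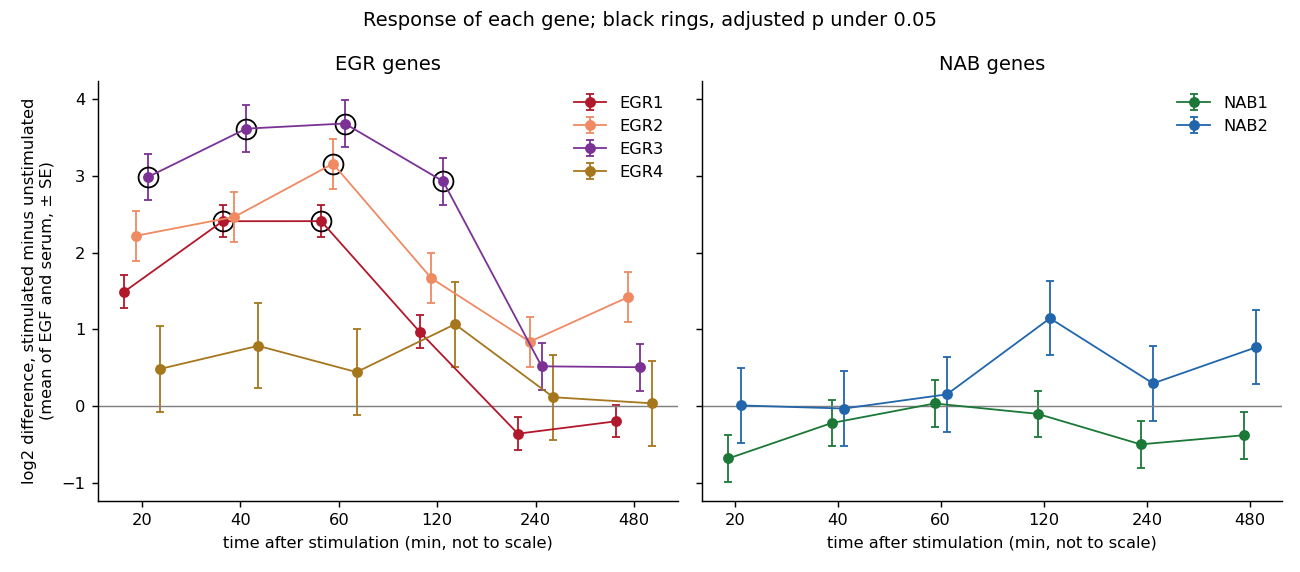
Log2 difference between the mean of the EGF and serum arrays and the unstimulated array, with its SE, against time, for the EGR genes and the NAB genes. Rings mark an adjusted p under 0.05: EGR3 carries them at 20 to 120 min, EGR1 at 40 and 60 min and EGR2 at 60 min. EGR2 and EGR3 passed the filter only through their higher arrays.

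The steps between neighbouring times do not use the unstimulated array and were chosen after seeing the data. Between 120 and 240 min 0.0259% of all genes passed, 1 of them EGR3. The steps of 20 to 40, 40 to 60, 60 to 120 and 240 to 480 min gave 0% of all genes and no member by limma. In these 4 steps 2, 1, 4 and 0 members had an unadjusted p under 0.05, as had 4.34%, 3.49%, 7.11% and 5.29% of all genes. In the step of 60 to 120 min, EGR1 had a difference of -1.44 (SE 0.17, adjusted p = 0.216) and EGR2 of -1.49 (SE 0.27, adjusted p = 0.36). NAB2 moved the other way in that step, by 0.99 (SE 0.40, adjusted p = 0.683).

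The late arrays, of 120, 240 and 480 min, were then compared with the early ones, of 20, 40 and 60 min, over both stimuli. The different times of a phase served as its samples, so the SE includes changes over time within a phase. EGR1 fell whether or not dim genes were filtered out, EGR2 and EGR3 passed the test with that filter and not without it, and EGR4, NAB1 and NAB2 did not pass. EGR1 had a lowest, median and highest signal of 77.5, 142 and 344.9 on late arrays. On early arrays it had 353.5, 665 and 984.6, without overlap, which was not counted over all genes. Its log2 difference was -1.97 (SE 0.32, 3.91-fold lower late, limma adjusted p = 0.0166), and this call held without each of the 13 arrays in turn. EGR2 signals were 3.5, 13.8 and 21.7 on late arrays and 27, 38.1 and 67.4 on early arrays, again without overlap. The difference was -1.31 (SE 0.26), with an adjusted p of 0.0259 over the filtered genes and of 0.0657 with no filter. The mean late levels of EGR2, 4.10 in EGF and 4.38 in serum, lay under the floor of 4.68, so its early arrays decided whether it was tested, and the call is a description only. It was tested in 11 of 13 omissions, those of a 60 min array leaving its mean under the floor. Without the EGF array of 40 or 480 min, or the serum array of 40 or 240 min, it missed the threshold, with adjusted p of 0.0534 to 0.0615. With an offset of 24 the difference was -0.80.

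For EGR3 the late signals were 16.9, 17.3 and 155.1 and the early ones 113.3, 183 and 253.6, which overlap through the EGF array of 120 min. The log2 difference of EGR3 was -2.11 (SE 0.51, 4.32-fold lower late, limma adjusted p = 0.0484). That call was lost in 10 of 13 omissions of 1 array (adjusted p of 0.0695 to 0.108) and kept without the unstimulated array or either array of 120 min. It also missed with no offset, with a variance trend, with no filter on dim genes and without both 20 min arrays (adjusted p of 0.0564 to 0.112). Since EGR3 passed that filter only through its higher arrays, the call is a description only. NAB2 lay at 50.5, 74.0 and 99.8 late and at 27.2, 46.4 and 81.2 early, with a difference of 0.69 (SE 0.25, adjusted p = 0.121). EGR4 and NAB1 had differences of -0.16 (SE 0.31) and -0.04 (SE 0.18). Across all genes 3.49% passed in this comparison, 131 higher and 139 lower late.

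Within each stimulus the differences of these genes did not pass the test. In EGF alone the late minus early difference was -1.95 for EGR1 (limma adjusted p = 0.132), -1.37 for EGR2 (adjusted p = 0.165) and -1.80 for EGR3 (adjusted p = 0.298). In serum alone it was -1.98 for EGR1 (adjusted p = 0.06), -1.24 for EGR2 (adjusted p = 0.1) and -2.42 for EGR3 (adjusted p = 0.102). NAB2 had 0.62 in EGF and 0.77 in serum. No member passed by limma in either stimulus, against 0.246% of all genes in EGF and 1.33% in serum, and 3 members in EGF and 4 in serum had an unadjusted p under 0.05, as had 14.5% of all genes in EGF and 20.2% in serum.

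EGF was set against serum array by array at the same time. EGR1 was higher in EGF in 6 of 6 pairs, by log2 differences of 0.41, 0.62, 0.41, 0.53, 0.84 and 0.14 at 20, 40, 60, 120, 240 and 480 min. The mean was 0.49 (SE 0.10, 1.40-fold, limma adjusted p = 0.0719), which misses the threshold. The other EGR1 probe set was also higher in EGF in 6 of 6 pairs, by a mean of 0.83. EGR3 was lower in EGF in the 3 early pairs, by -0.37, -0.26 and -0.49, and higher in the 3 late pairs, by 0.60, 0.04 and 0.10. EGR4 was lower in EGF in 4 of 6 pairs, with -1.17 at 20 min and -1.32 at 480 min. NAB1 had -0.77 at 20 min and NAB2 had 1.38 at 60 min, in 6 pairs that otherwise held both signs. A dimmer NAB1 probe set was higher in EGF in 6 of 6 pairs, by a mean of 0.157. How many of all genes had the same sign in every pair was not counted. EGR2 was higher in EGF in 2 of 6 pairs, with a mean of -0.22 and an adjusted p of 0.455.

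None of the 6 members passed in this comparison by limma, against 0.129% of all genes, and 1 member, EGR1, had an unadjusted p under 0.05, as had 20.5% of all genes. In the early pairs alone 0% of all genes and no member passed, with 2 members and 14.4% of all genes at an unadjusted p under 0.05. EGR1 there had a difference of 0.48 (adjusted p = 0.247) and EGR3 of -0.37 (SE 0.14, adjusted p = 0.299). In the late pairs alone 0.75% of all genes and no member passed, and 1 member had an unadjusted p under 0.05, as had 18.9% of all genes. EGR1 differed by 0.50 (adjusted p = 0.152) and EGR3 by 0.24 (adjusted p = 0.378). The change of the stimulus difference between phases was 0.62 for EGR3 (SE 0.19, adjusted p = 0.37) and 0.02 for EGR1. No member passed that interaction test either, against 0.0259% of all genes, and 1 member, EGR3, had an unadjusted p under 0.05, as had 11.1% of all genes.

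**Figure D5:**
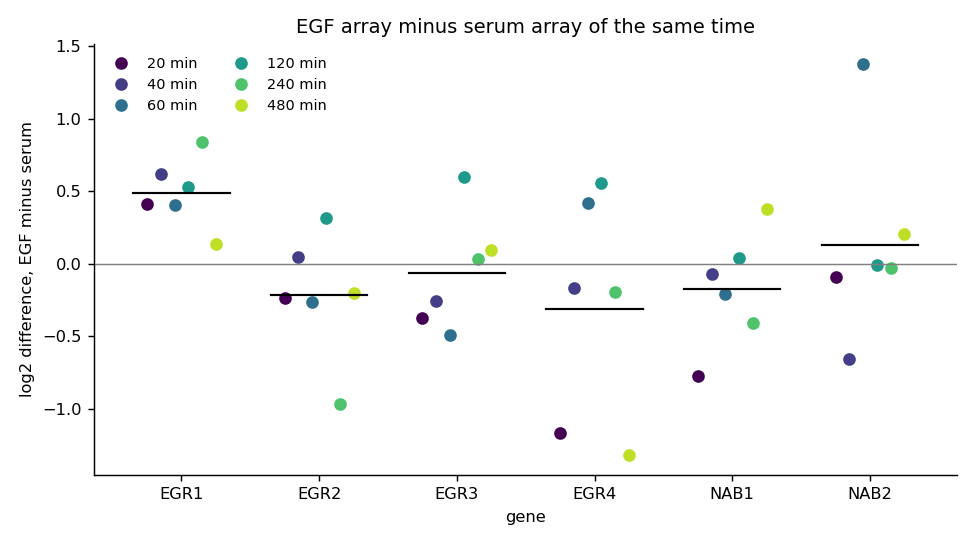
Log2 difference between the EGF array and the serum array of the same time for each gene, 1 point per time. By the brightest probe sets, all 6 points of EGR1 lie above 0, and the other 5 genes have points on both sides.

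The shapes of the courses over the 13 arrays are described by Pearson's r, without a test, since all share the same arrays and the same unstimulated cells. Among the members r was 0.916 for EGR1 and EGR3, 0.869 for EGR2 and EGR3 and 0.812 for EGR1 and EGR2. For EGR1 and NAB2 it was -0.32, and for NAB1 and NAB2 it was 0.09. Among genes other than the 6, the course most like that of EGR3 was CCN2, a secreted matricellular protein, with r of 0.967 and signals of 321.3 to 3842.6, followed by ADAM15 with 0.930 and CYBRD1 with 0.924. The closest of these to EGR1 were MGST2 with 0.947, CYBRD1 with 0.923 and CEP57 with 0.914. For EGR2 they were XRCC1 with 0.890, DUSP5, a nuclear ERK phosphatase, with 0.888, and MAGED2 with 0.878. EGR4 was closest to DPH5 (0.832), EP300 (0.762) and FAM234B (0.761), NAB1 to RBM23 (0.853), JAK1 (0.826) and CUL7 (0.811), and NAB2 to STK24 (0.812), KIAA0930 (0.808) and BCL7B (0.802).

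Of 22 genes listed as known EGR1 targets, 17 were measured and 16 tested. None passed the test in the response at any of the 6 times by limma. Their median log2 difference was 0.26 at 20 min and 0.02 at 60 min, against 0.0039 and -0.0039 for all genes. Late minus early, 0 were higher and 1 was lower, ATF3, a stress-induced bZIP factor with signals of 13 to 449.8 over the arrays. Its difference was -1.88 (SE 0.39, limma adjusted p = 0.0291), and the median of the list was -0.06 against 0.02 for all genes. In serum alone ATF3 fell by 2.93 and GDF15, a stress-responsive cytokine of the TGF-beta family, by 1.44 (adjusted p = 0.0348 for both). In the late pairs GDF15 was higher in EGF than in serum by 1.75 (adjusted p = 0.0271), and VEGFA, the main angiogenic growth factor, by 1.26 (adjusted p = 0.0246).

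Of 10 genes listed as EGR2 and EGR3 targets, most of them known from lymphocytes, 9 were measured and 6 tested, with 0 past the threshold late minus early and a median of -0.22 against 0.02 for all genes. The largest differences were those of CBLB, a ubiquitin ligase that restrains receptor signalling, at -0.88 (limma adjusted p = 0.111), and RNF128, at -0.64 (adjusted p = 0.105). SOCS1, a feedback inhibitor of JAK signalling with signals of 7.4 to 49.4, was called in 3 other comparisons. It fell late in EGF, by 1.63 on the log2 scale (adjusted p = 0.0132), was lower in EGF than in serum late, by -1.34 (adjusted p = 0.0221), and had an interaction of -2.54 (adjusted p = 0.0382). DGKZ, a kinase that removes diacylglycerol, rose late in serum by 0.62 (adjusted p = 0.0481).

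Of 18 genes of SRF, its partners and the ERK pathway, 17 were measured and tested, and 0 passed at any response time. Late minus early, 0 were higher and 1 was lower, MRTFB, an actin-regulated SRF coactivator, at -0.32 (SE 0.08, limma adjusted p = 0.0447), while the median of the list was 0.22 against 0.02 for all genes. ELK3, a ternary complex factor, was lower in EGF than in serum by -0.78 (adjusted p = 0.0475). Of 13 genes of the NuRD complex, a chromatin repressor that NAB proteins recruit through CHD4, 11 were measured and 10 tested. None passed late minus early, with CHD3 at -0.38 (adjusted p = 0.0723), MBD2 at 0.21 (adjusted p = 0.119) and a median of 0.06. Of 4 other factors with GC-rich sites, 2 were tested, MAZ at 0.09 and SP3 at 0.07 late minus early, and neither passed.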

How the data were processed

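The authors deposited 1 table of 13 Affymetrix arrays, whose values are the MAS5 signal, an intensity on a linear scale. MAS5 is named in the submitters' processing notes; its version is not given in the sources used here. Detection calls were not used, and the number of arrays limits the precision.

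From the deposited intensity, log2 of signal plus 6 was taken, 6 being the rounded 20th percentile (5.9) of all values. The arrays were quantile normalised. Of the probe sets, 62 were controls; 19064 carried 1 gene symbol in the platform table, 1043 several and 2108 none. EGR2 had no symbol there and was read by the probe set that the rule for the members gives. Genes were kept when their brightest probe set had a mean at or above the 40th percentile over all probe sets, 4.68. That kept 7734. A fold is on the log2(signal + 6) scale and understates changes of dim genes.

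Models were fitted with limma 3.58.1 (lmFit and eBayes) in R 4.3.3 across all 7734 genes, with p-values adjusted by Benjamini and Hochberg over all of them and a threshold of 0.05. Time and stimulus were additive terms for the response and the steps (5 residual degrees of freedom). Late minus early had 8, EGF minus serum with time as a block 5, and its early and late parts and the interaction 4. The procedure was tested on simulated data. The members and lists were chosen with earlier results of these data known. The text names the 6 members in every comparison, the 3 genes most like each by Pearson's r, and of each list up to 5 genes past the threshold in a comparison, otherwise the 2 with the largest late minus early difference. Promoter windows were RefSeq's. Alternatives were other offsets, no quantile normalisation, no filter or a stricter one, time as a factor, robust variances with a trend, averaging all probe sets of a gene, each array left out, both 20 min arrays left out and, chosen after seeing the data, the second brightest probe set. Motif searches and figures used numpy 2.4.6, pandas 2.3.3 and matplotlib 3.10.9 under Python 3.11.15.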

Additional observations from a re-analysis of the deposited data

How the results depend on the processing

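With 1 array per stimulus and time, most calls rested on few arrays. The number of members past the threshold changed as follows, and the cause was not tested. In the response at 20 min it was 1, and became 0 with an offset of 24 or no filter and 2 with the mean of probe sets or a variance trend (0 to 1 leaving out 1 array). At 40 min it was 2, and 1 with the second brightest probe set (0 to 3). At 60 min it was 3, and 1 with no filter (0 to 3). At 120 min it was 1, and 0 with no filter or without both 20 min arrays (0 to 1). The step of 60 to 120 min gave 0, and 1 with a stricter filter or a variance trend. The step of 120 to 240 min gave 1, then 2 with an offset of 24, a stricter filter or a variance trend, and 0 with no filter, without both 20 min arrays or with any 1 array left out. Late minus early gave 3, and 1 with no offset, with no filter or without both 20 min arrays (1 to 3). In EGF it gave 0, and 2 with time as a factor. In serum it gave 0, then 2 with time as a factor and 1 with an offset of 24, a stricter filter, the mean of probe sets or the second brightest probe set (0 to 2). EGF minus serum gave 0, and 1, EGR1, with an offset of 24, a stricter filter, the mean of probe sets or a variance trend. Its late part gave 0, and 1 with a variance trend. EGR1 late minus early kept its call in all 23 settings run, between -2.58 and -1.80. No called value changed sign. Of 97 values that were not called, 47 changed sign under at least 1 setting. Over all genes, late minus early called 270, from 67 with no filter to 654 with a variance trend, and EGF minus serum called 10, from 1 with no filter to 429 with a variance trend; in serum 103 ran from 10 to 414, in EGF 19 from 0 to 69, and in late pairs 58 from 1 to 555. The interaction called 2, from 0 to 70, and the responses at 20, 40, 60 and 120 min called 2, 6, 8 and 2, and with a variance trend 5, 20, 30 and 27. The responses at 240 and 480 min and the early pairs called 0, and with a variance trend 36, 46 and 178.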
